A study of Mus musculus with 2 samples.

Results

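The Angelman side of the imprinted domain on mouse chromosome 7 was read here through 4 of its 5 members. Members are the entries of the catalog of imprinted genes that start between 64.5 and 66.87 Mb, of which Atp10c, Ube3a and MBII-52 are described, and the candidate transcript C230091D08Rik, which is listed at 66563293 to 66579519 on the mm9 build. The catalog holds 128 entries, and the list of candidates has 53 in all. The catalog marks Ube3a and Atp10c as expressed from the maternal allele and MBII-52 as expressed from the paternal allele. The annotation carries Atp10c under its later name Atp10a, and RefSeq names list C230091D08Rik, together with Ube3a-ATS, as synonyms of Snhg14.

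RNA came from whole brains of F1 mouse embryos at E17.5, with no treatment in either group. BxC embryos had a C57BL/6J mother and a CastEi/J (CAST/EiJ) father and CxB embryos the reverse, with 1 library for each cross, so every difference below compares 2 libraries and has no replicate check. The BxC library held 128944754 reads on 36575945 distinct positions and the CxB library 109719746 reads on 31155725. Xist, the RNA that silences an X chromosome in females, had 142957 reads in BxC and 38 in CxB, while 4 genes of chromosome Y had 0 reads in BxC and 602 to 2916 in CxB. Cross, sex and library therefore cannot be told apart. The reads carried no allele in the files, so levels are sums over both parental alleles. Neurons, glia and their precursors were all represented: 36 of 37 marker genes of brain cell types were found in the annotation and passed 100 reads, their log2 ratios ran from -0.37 to 0.32, and the median was -0.0011. Blood markers were lower in CxB by reads (Hba-a1 -0.28, Hbb-b1 -0.30 and Alas2 -0.51 on the log2 scale). Of 8 markers from outside the brain, 4 passed 100 reads, with log2 ratios from -0.30 (Acta1, 465 and 321 reads) to 0.07 (Krt14, 65 and 58) and a median of -0.16. Of the other 4, Alb had 0 reads in BxC and 45 in CxB, Krt5 5 and 44, Afp 3 and 3, and Gh 0 in both. Their part in the results below was not tested.

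Ube3a encodes a ubiquitin ligase of the HECT family, which passes ubiquitin from a conjugating enzyme to its substrates. Loss of the maternal copy causes Angelman syndrome, because mature neurons silence the paternal copy. Silencing in neurons involves a long noncoding RNA that starts far away on the Prader-Willi side, runs through the Snrpn transcript and a tandem array of small nucleolar RNAs, and continues across Ube3a on the opposite strand (Ube3a-ATS). MBII-52, also named SNORD115, is the C/D box small nucleolar RNA of that array. Atp10a encodes a phospholipid-transporting ATPase.

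The small nucleolar RNA is shown first because its short element is what it is known for, complementarity to the messenger of the serotonin receptor Htr2c. The catalog entry lies at chr7:66648934-66648999 on the minus strand, and its 66 bases were searched for the longest stretch whose reverse complement occurs in an annotated Htr2c transcript. That stretch was 18 bases long, bases 43 to 60 of the entry, and it was found in 2 of 4 protein-coding Htr2c transcripts. It is printed in capitals inside 28 bases of the minus strand at chr7:66648935-66648962.
MBII-52: aattcATGCTCAATAGGATTACGctgag
The annotation places 137 SNORD115 copies with 57 distinct sequences at 66597596 to 66874465, of which 105 copies held the 18 bases without a mismatch.

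Splice sites of Ube3a are shown because exon 1 was joined to 4 different exons. Capitals mark the first 2 bases of the intron in the donor and the last 2 bases of the intron in the acceptors, all on the plus strand of mm9 with 12 bases on each side of the cut.
Ube3a exon 1 donor: gggcgaggacagGTcagtgctgct
Ube3a exon 2 acceptor: tttatattttAGgttaaaaaatct
Ube3a exon 3 acceptor: ttaatttattAGaattattaagcc
Ube3a exon 4 acceptor: tacattttacAGatcaccaggaga
Ube3a exon 5 acceptor: tgtctggtacAGgaagcgagcagc
The donor spans chr7:66484630-66484653, and the acceptors span chr7:66496325-66496348, chr7:66498708-66498731, chr7:66502531-66502554 and chr7:66527305-66527328 in the order printed. All 4 acceptors carried AG and the donor GT.

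Splice sites were also read from junctions inside C230091D08Rik and the array, since their motif gives a strand apart from that of the reads. Reads could align only to splice junctions of the authors' gene models, so the strand of the motif is that of the model. The longer intron of C230091D08Rik (8.13 kb) had the following ends when read on the minus strand, at chr7:66573217-66573240 and chr7:66565085-66565108.
C230091D08Rik donor: ctctggattttgGTaagtctgatt
C230091D08Rik acceptor: tctttttttaAGttaacaagcaac
The array junction with most reads spans an intron of 0.384 kb, with its ends at chr7:66660833-66660856 and chr7:66660449-66660472 on the same strand.
SNORD115 array donor: cagttttggaaaGTaggtaattgg
SNORD115 array acceptor: gttgttttgcAGttatgtcacaag
Read on the plus strand these introns would begin with CT and end with AC, the complement of a standard intron.

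Levels of the members were first compared per length. Ube3a (66484122 to 66562097, plus strand, 13 exons) had 7336 reads over its exons in BxC and 5738 in CxB, or 11.2 and 10.3 RPKM (reads per kb, scaled to the total reads of the library). C230091D08Rik had 6181 and 5972 reads over its whole span, or 2.95 and 3.35 RPKM. Atp10a (65913572 to 66084796, plus strand, 21 exons) had 851 and 868 reads, or 1.21 and 1.45 RPKM (2.14 and 2.39 by distinct positions), and the narrower blocks of the Atp10c entry held 762 and 760 of them. MBII-52 had 0 reads in either library, which allows up to 3 reads, a scaled count (RPM) of 0.0233 in BxC and 0.0273 in CxB. Only 13.6% of the 36-base words in its 66 bases occur once in the genome, and the authors kept uniquely mapping reads from RNA selected for poly(A) tails. Over exons, Ube3a stood above Atp10a in both libraries. C230091D08Rik was counted over a span that includes introns, so its level is not ranked against the exon level of Ube3a. Introns of Ube3a had 2.75 RPKM in BxC and 2.72 in CxB. The Ube3a level, ranked among 22380 protein-coding genes, stood at percentile 82.1 in BxC and 80.6 in CxB, and Atp10a at 47.10 and 48.96.

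Ratios between the libraries were small for Ube3a, C230091D08Rik and Atp10a. On the log2 scale of CxB over BxC, Ube3a was at -0.12 (95% interval -0.17 to -0.07), C230091D08Rik at 0.18 (0.13 to 0.23) and Atp10a at 0.26 (0.12 to 0.40). The intervals are exact binomial ones and cover counting error only. Identical reads are not independent, so true intervals are wider than these: each distinct position held 2.92 to 3.05 reads in Ube3a. Counted once per distinct position, Ube3a moved to -0.06 and C230091D08Rik to 0.08. None of these 3 passed a 2-fold difference, which 0.732% of 17079 annotated genes with at least 100 reads did (0.363% higher and 0.369% lower in CxB), and 5% to 95% of those genes lay between -0.36 and 0.34. The number of genes past 2-fold, 125, depended on the counting: it was 34 by distinct positions, 66 on the sense strand, 28 at a minimum of 500 reads and 911 at a minimum of 20. With 1 library for each cross no test was possible. In whole brain, fewer cells that express a gene and less RNA per cell cannot be told apart.

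**Figure D1:**
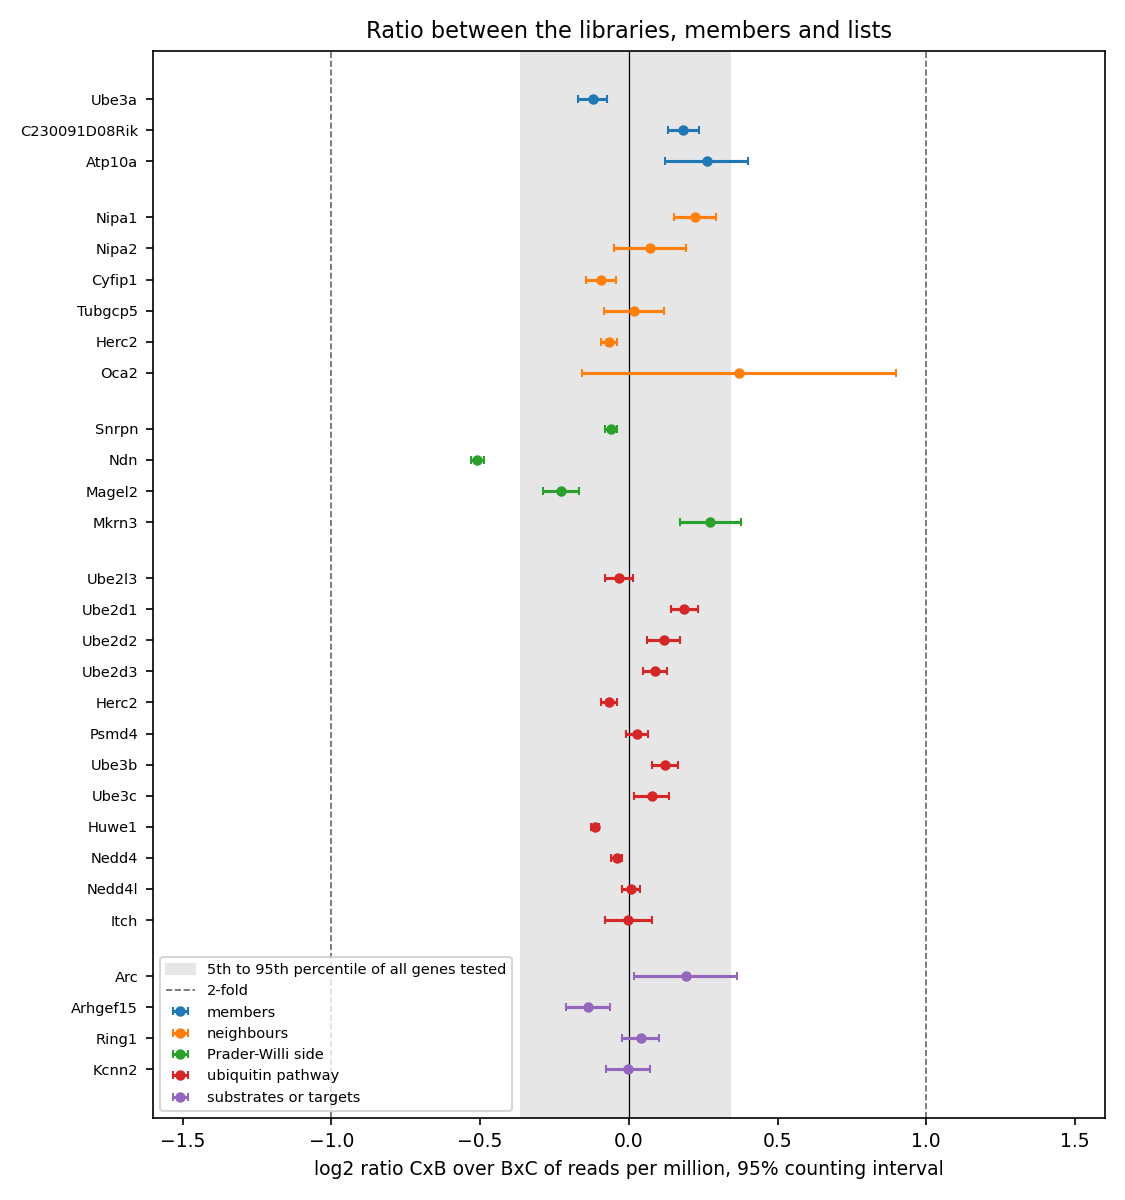
Log2 ratio CxB over BxC of scaled reads (x axis) for Ube3a, C230091D08Rik and Atp10a and for the genes of 4 lists with at least 100 reads (y axis), with 95% counting intervals as bars. The grey band runs from -0.36 to 0.34 (5th to 95th percentile of all genes tested) and dashed lines mark 2-fold; the points of Ube3a, C230091D08Rik and Atp10a lie inside the band, and those of Ndn and Oca2 lie outside it.

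Reads over Ube3a were not confined to exons. Its introns held 25885 reads in BxC and 21784 in CxB, against 7336 and 5738 over the exons. Per kilobase the introns had 355 and 299 reads and the exons 1439 and 1126, so that intron density was 24.7% of exon density in BxC and 26.6% in CxB. The median over 5896 protein-coding genes that overlap no other gene was 3.48% and 3.50%, which placed Ube3a at percentile 97.05 and 97.59. Atp10a, on the same strand, lay far lower, with introns at 2.03% and 2.16% of exon density. Intron reads of Ube3a had a density near that over C230091D08Rik (381 and 368 reads per kb) and above that of the introns of Atp10a (3.16 and 3.43). The intron log2 ratio was -0.02 (-0.04 to 0.01), nearer to 0 than that of the exons.

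Coverage within Ube3a was uneven in both libraries. Exon 1 (520 bases) had 2369 and 1943 reads, or 35.3 and 34.1 RPKM, and the last exon (1918 bases) 1978 and 1684, or 7.998 and 8.002 RPKM. Exon 4 had the highest density (8489 and 6489 reads per kb) but it is 45 bases long, and a read counts as soon as it overlaps, which raises short exons. Exons 2 and 3 had fewer reads in CxB, with 121 and 67 reads for exon 2 and 216 and 113 for exon 3, log2 ratios of -0.62 (-1.07 to -0.18) and -0.70 (-1.04 to -0.37). By distinct positions these ratios were 0.08 and -0.16. Exons this short hold few positions, and the cause of the difference was not tested. Of introns, intron 4 (24.7 kb, 9559 and 7787 reads), intron 11 (14.9 kb, 6061 and 5676) and intron 1 (11.7 kb, 5825 and 4993) held most reads. Intron ratios went both ways. Intron 6 was lower in CxB (1690 and 806 reads, -0.84; -0.51 by distinct positions), as was intron 8 (495 and 227 reads, -0.89; -0.28). Introns 2, 3, 7 and 9 were higher in CxB by reads, at 0.34, 0.42, 0.57 and 0.44, and by distinct positions stood at -0.02, 0.19, 0.01 and 0.16.

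**Figure D2:**
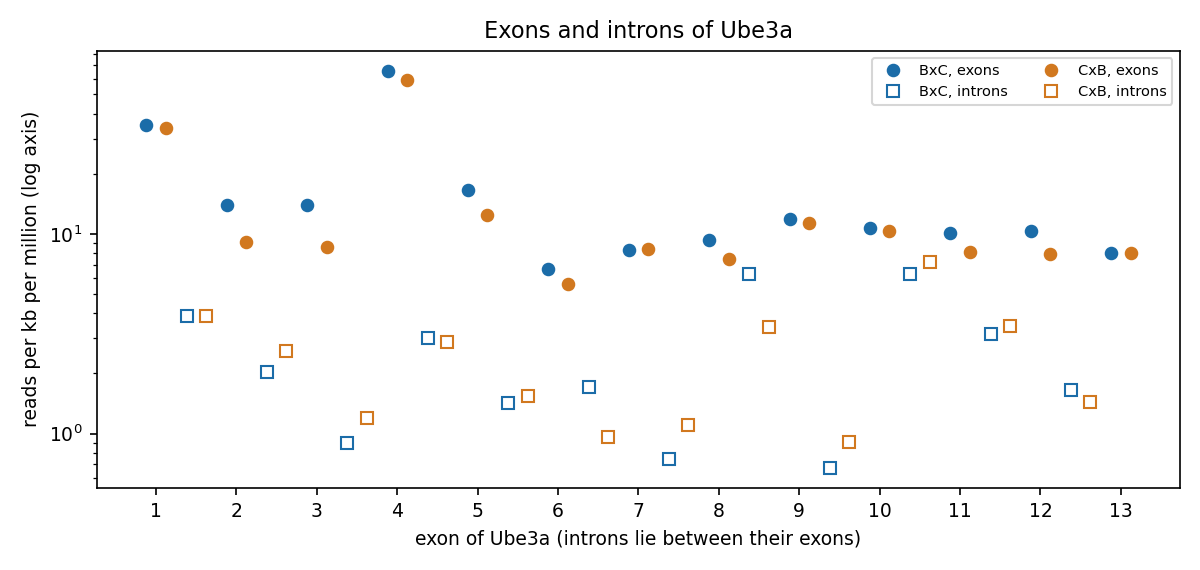
RPKM (y axis, log scale) in each of the 13 exons of Ube3a (filled circles) and the introns between them (open squares), in order along the gene (x axis), for BxC (blue) and CxB (orange). Every intron lies under both exons beside it in each library, with the smallest distance at intron 10 and, in BxC, intron 8.

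Exon 1 of Ube3a was spliced to exon 4 more often than to any other exon. Of 396 junction reads that left exon 1 in BxC, 237 went to exon 4 (59.8%, exact 95% interval 54.8% to 64.7%), 86 to exon 2, 66 to exon 3 and 7 to exon 5. Of 272 in CxB, 207 went to exon 4 (76.1%, 70.6% to 81.0%), 29 to exon 2, 36 to exon 3 and 0 to exon 5, which allows a share of up to 1.35%. The intervals of these shares by reads did not overlap between the libraries. Nor did they among reads with at least 8 bases on each side of the junction. There 59.9% (52.8% to 66.7%) of 202 reads in BxC and 77.9% (70.3% to 84.4%) of 145 in CxB went to exon 4. By distinct positions the intervals were wide and overlapped, with 52.4% (36.4% to 68.0%) of 42 positions in BxC and 57.6% (39.2% to 74.5%) of 33 in CxB. The splice from exon 1 to exon 4 is that of transcript Ube3a-201, which lacks exons 2 and 3, while Ube3a-202 includes both and starts its 870 annotated codons in exon 3. The coding part given for Ube3a-201 has 906 codons and starts in exon 1 with a codon that is not ATG. Joins from exon 1 directly to exon 3 and to exon 5 belong to neither transcript.

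**Figure D3:**
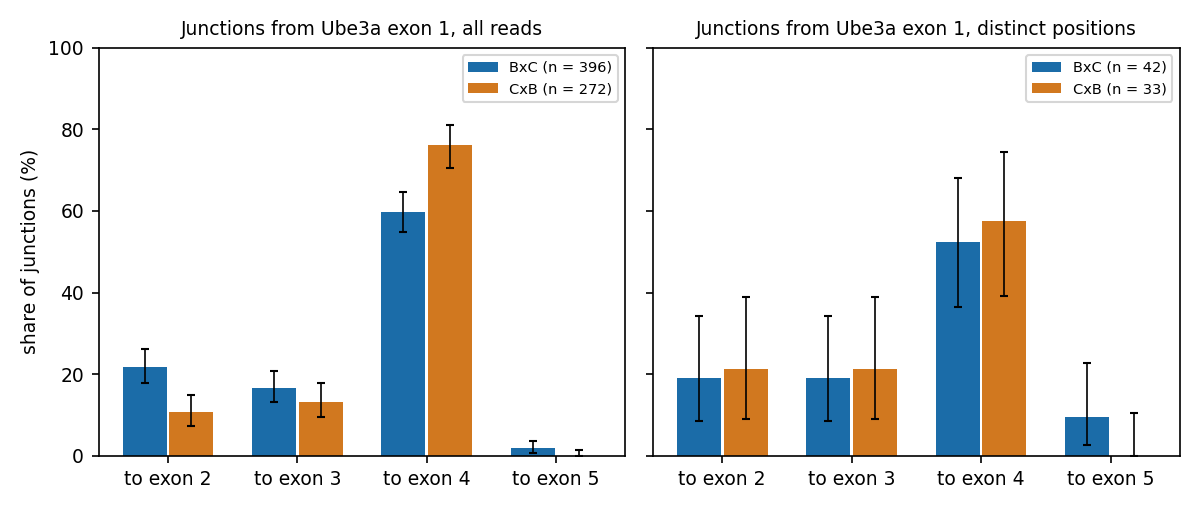
Share of junctions from Ube3a exon 1 that led to exons 2, 3, 4 and 5 (y axis, percent), by all reads (left) and by distinct positions (right), with exact 95% counting intervals as error bars for BxC (blue) and CxB (orange). Exon 4 is the tallest bar in all cases, at 59.8% and 76.1% by reads and 52.4% and 57.6% by positions, where the intervals overlap.

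The same choice read from the other side gave a larger share. Of junction reads that entered exon 4, 237 of 252 in BxC (94.05%, 90.4% to 96.6%) and 207 of 221 in CxB (93.7%, 89.6% to 96.5%) came from exon 1, and 14 and 10 came from exon 3. By distinct positions the share from exon 1 was 78.6% (59.0% to 91.7%) of 28 in BxC and 70.4% (49.8% to 86.2%) of 27 in CxB. Junctions further along had fewer reads, with 74 and 36 from exon 4 to exon 5, 14 and 6 from exon 5 to exon 6, 4 and 1 from exon 6 to exon 7, and 22 and 12 from exon 7 to exon 8. Exons 8 and 9 were joined by 16 and 20 reads, exons 9 and 10 by 11 and 6, exons 10 and 11 by 6 and 9, exons 11 and 12 by 13 and 7, and exons 12 and 13 by 2 and 5. Exons 2 and 3 were joined by 6 and 5. Altogether 579 reads in BxC and 399 in CxB crossed a Ube3a junction, 505 and 353 of them at annotated introns, and all 13 annotated junctions seen had reads in both libraries. No junction read in either library joined Ube3a to a position past its end. Since reads were aligned only to junctions of gene models, such a join could be seen only if a model held it.

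Atp10a had few junction reads, 94 and 54 on 15 and 13 annotated junctions, but also few reads over its exons, 851 and 868. Of the junction reads 36 and 24 lay at the last junction and 15 and 4 between exons 17 and 18. Each other junction had 0 to 10 reads in a library. Exon 1 of Atp10a held 308 and 376 of its reads.

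Strand was examined next, since the noncoding RNA and Ube3a lie on opposite strands. Reads of these libraries separated the strands little: in exons the median share of positions on the plus strand was 49.2% and 48.4% for plus-strand genes and 50.8% and 51.8% for minus-strand genes. A weak lean was present in introns, where single-gene values were counted by distinct position. Introns of 1334 plus-strand genes had a median of 42.3% of positions on the plus strand in BxC, and 1126 genes had 41.3% in CxB. Introns of minus-strand genes leaned the other way, to 57.7% (1347 genes) and 58.5% (1120 genes). Atp10a introns, on the plus strand, followed their group with 43.3% (38.2% to 48.6%) and 41.5% (36.5% to 46.6%). Ube3a introns, also those of a plus-strand gene, had 52.6% (51.5% to 53.6%) and 54.6% (53.5% to 55.8%). Only 11 of the 1334 plus-strand genes in BxC and 5 of the 1126 in CxB had a higher share than Ube3a, and its values fell between the medians of plus-strand and minus-strand introns. By reads rather than positions 63.5% and 62.2% of Ube3a intron reads lay on the plus strand, against medians of 41.7% and 41.3% for the gene's own strand over 2349 and 2028 genes. Exons of Ube3a had 51.3% and 50.7% of positions on the plus strand. By reads they had 48.3% and 48.2% on the gene's own strand, near the 95th percentile of 48.7% and 48.2% over 5405 and 5159 genes, whose medians were 43.8% and 43.1%.

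By distinct positions, unannotated sequence on either side of Ube3a leaned like minus-strand introns, and by reads only part of it did. The 20 kb before Ube3a had 60.6% (57.8% to 63.2%) and 60.1% (57.0% to 63.2%) of positions on the plus strand, and the gap after it 59.6% (54.8% to 64.2%) and 62% (56.7% to 67.1%). C230091D08Rik had 56.0% (54.0% to 58.0%) and 56.8% (54.6% to 58.9%). By reads the 20 kb before Ube3a kept the lean, with 67.2% and 65.0% on the plus strand, as did the stretch from C230091D08Rik to the array with 59.7% and 59.0%. The gap, by reads, had 47.7% (44.8% to 50.7%) and 49.4% (46.1% to 52.7%), and C230091D08Rik 47.6% (46.3% to 48.8%) and 47.4% (46.1% to 48.6%), which is under an even share. The strand of those last stretches therefore depended on how repeated reads were counted. Junction motifs do not rest on the lean, but their strand is that of the gene models aligned to. Both junctions seen in C230091D08Rik had the minus-strand motif, with 12 reads in BxC and 5 in CxB, while all Ube3a and Atp10a junctions had the plus-strand motif. With an overhang of at least 8 bases, only the 8.13 kb intron of C230091D08Rik kept reads, 5 in BxC and 3 in CxB. Neither junction of C230091D08Rik reached 10 reads in each library.

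**Figure D4:**
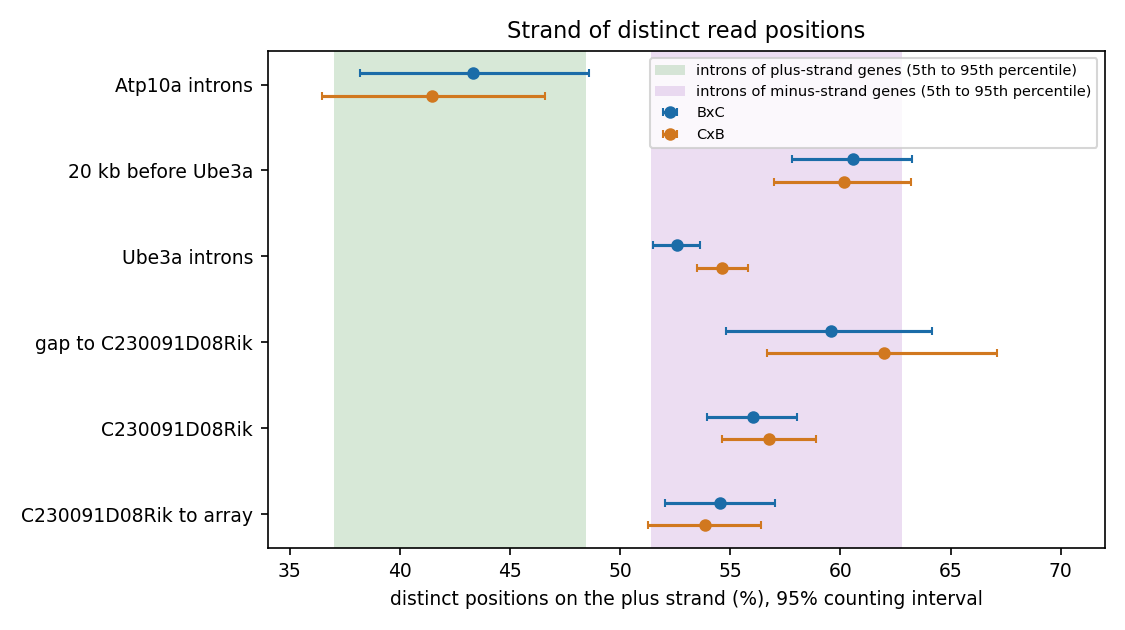
Share of distinct read positions on the plus strand (x axis, percent, with exact 95% counting intervals) for 6 stretches of the locus (y axis) in BxC (blue) and CxB (orange). The green and purple bands give the 5th to 95th percentile of introns of plus-strand and minus-strand genes, from the lowest to the highest bound of both libraries. Atp10a introns have their points in the green band, and Ube3a introns and all stretches around Ube3a have their point in the purple one.

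Coverage did not stop at either end of Ube3a. Between its last base and C230091D08Rik lie 1.20 kb with no annotated exon, and unspliced reads there numbered 1104 in BxC and 929 in CxB. Their density (924 and 777 reads per kb) was 89.6% (83.1% to 96.5%) and 88.5% (81.6% to 96.0%) of that of the last exon. All 36-base words in the gap occur once in the genome. The first kilobases past the gap were the densest of C230091D08Rik, with 2801 and 2380 reads in the kilobase that starts 1.08 kb after Ube3a, and density then fell to 115 and 70 reads in the one that starts 5.08 kb after it. From C230091D08Rik to the array, 18.1 kb held 4027 and 4165 reads (223 and 230 per kb, log2 ratio 0.28). A second rise to 1667 and 1505 reads per kb stood 26.1 kb after Ube3a.

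Before Ube3a, no gene is annotated up to the pseudogene Gm6226 next to Atp10a. The last 20 kb before its start held 2743 and 2263 reads (137 and 113 per kb) and the 20 kb before those 1223 and 1610. The third such window had 109 and 147 reads, the fourth 30 and 42, and the fifth 1 and 4. Scaled to the library totals, the last 20 kb had a log2 ratio of -0.04 (-0.13 to 0.04). The stretch from Atp10a up to those 20 kb was higher in CxB, at 0.59 (0.50 to 0.69), or 0.45 by distinct positions. Its 10 kb window that starts 40 kb before Ube3a, with 820 and 1214 reads, had 0.80 (0.67 to 0.93). Over the 19 windows of 20 kb between Atp10a and Ube3a the median was 0.1 and 0.3 reads per kb, so the reads before Ube3a ended within 100 kb of it and did not reach Atp10a. An unannotated junction of 0.829 kb, 3.77 kb before Ube3a, had 19 and 8 reads but no standard splice motif on either strand.

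**Figure D5:**
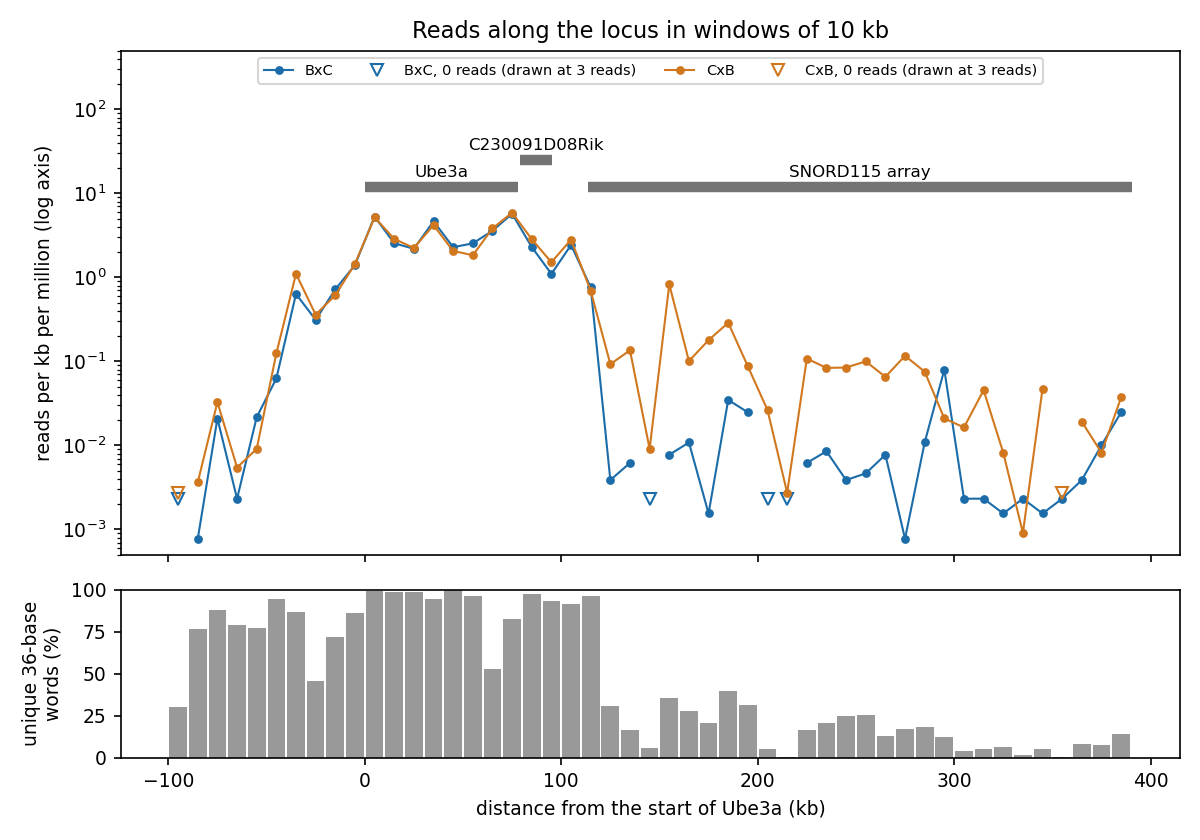
RPKM in windows of 10 kb (upper y axis, log scale) against distance from the start of Ube3a in kb (x axis) for BxC (blue) and CxB (orange), with grey bars for Ube3a, C230091D08Rik and the SNORD115 array; open triangles are windows with 0 reads, drawn at 3 reads. The lower panel gives the percent of 36-base words that occur once in the genome. Both libraries run together over Ube3a and up to the array, and within the array BxC lies under CxB in 23 of 27 windows.

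Of the stretches compared, the array past its start was where the libraries differed most. Over its 277 kb BxC had 1162 reads and CxB 3497, a log2 ratio of 1.82 (1.73 to 1.92). Most BxC reads lay in the first 20 kb, at whose start density rose again after a low of 7 and 18 reads in the kilobase that starts 29.1 kb after Ube3a, to 334 and 177 in the one at 36.1 kb. Without that stretch, a choice made after seeing the data, 335 reads remained in BxC and 2650 in CxB, a log2 ratio of 3.22 (3.05 to 3.38), or 9.30-fold (8.29 to 10.4). By distinct positions the ratio without it was 2.94. In the 27 windows of 10 kb that begin beyond the edge of the array, CxB was higher in 23, in 22 of them by at least 2-fold. BxC windows ranged from 0 to 103 reads with a median of 5, and CxB windows from 0 to 908 with a median of 72. The exceptions lay far along the array, and the clearest was the window 290 kb after the Ube3a start with 103 reads in BxC and 23 in CxB. On a fixed grid of 10 kb windows over the autosomes, 8.33% of 118234 windows with at least 20 reads over both libraries passed 2-fold, 4.67% higher and 3.66% lower in CxB. Windows of the array reached that minimum mostly through CxB, so their share past 2-fold is not read against these values.

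The array was also poorly mappable. Only 17.4% of its 36-base words occur once in the genome, against 90.1% across Ube3a, so counts there come from a small part of the sequence. Uniqueness was uneven along it. The 10 kb window that holds its start, 110 kb after the Ube3a start, had 96.3% unique words. That window had 986 reads in BxC and 762 in CxB (log2 ratio -0.14). In the next window 30.8% of words were unique, with 5 and 102 reads. Whether uniqueness bears on the difference was not tested. The father, whose allele the catalog gives for MBII-52, was CastEi/J in BxC and C57BL/6J in CxB, and the reads were aligned to the C57BL/6J reference, so strain of the father, sex and library cannot be told apart.

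Spliced reads of the array followed the same division. In CxB 13 junctions with 190 reads lay inside it, all with the minus-strand motif and none annotated. Their strand, too, is that of the gene models aligned to. BxC had 9 reads at 1 of those junctions, which had 18 in CxB, and 1 further read at a junction without a standard motif. The most used, with the splice sites printed above, had 55 reads in CxB and 0 in BxC. The next had 28 and 0. The annotated SNORD115 copies themselves, 10.8 kb in all, held 23 reads in BxC and 65 in CxB (1.73, 1.03 to 2.49).

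Upstream of the array on the same noncoding transcript the contrast was smaller. The span of the Ipw entry had 2734 and 4135 reads (log2 ratio 0.83, 0.76 to 0.90), and introns of Snrpn had 5676 and 4343 (-0.15, -0.21 to -0.10). Beyond the array, towards Ube3a, the ratio was 0.28 up to C230091D08Rik, 0.18 in it and -0.02 in the introns of Ube3a. In the 8 windows of 10 kb over Ube3a the ratio lay between -0.47 and 0.17. In the 16 windows of 5 kb it lay between -1.06 and 0.36, and the lowest, 50 kb after the start, had 1054 and 429 reads (-1.06, -1.23 to -0.90; -0.65 by distinct positions).

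Genes linked to Ube3a by position or function were compared from 4 lists, none of which had a gene past 2-fold. With 0.732% of all genes past it, lists of this size would hold few or none, so these counts of 0 say little about the lists. Of the 4 paternally expressed genes on the Prader-Willi side, 0 passed 2-fold (median -0.14), with Snrpn at -0.06, Magel2 at -0.23, Mkrn3 at 0.27 and Ndn, whose product restrains cell growth, at -0.51 (43879 and 26223 reads). The 6 neighbours outside the imprinted domain (Nipa1, Nipa2, Cyfip1, Tubgcp5, Herc2 and Oca2) ranged from -0.09 to 0.37, and 0 passed.

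The list of the ubiquitin pathway held conjugating enzymes, a binding partner, a proteasome subunit and other HECT ligases. Of its 12 genes, 0 passed 2-fold and the median was 0.02. Ube2l3, the conjugating enzyme that works with Ube3a, had 8474 and 7047 reads (-0.03), Herc2, a ligase that binds Ube3a, 27465 and 22322 (-0.07), and the proteasome subunit Psmd4 12939 and 11231 (0.03). Of the other HECT ligases, Huwe1 (-0.11), Nedd4 (-0.04) and Itch (-0.0016) had ratios under 0, and Ube3b (0.12), Ube3c (0.08) and Nedd4l (0.0073) over 0. The conjugating enzymes Ube2d1 (0.19), Ube2d2 (0.12) and Ube2d3 (0.09) were over 0. Genes listed as substrates or targets in neurons numbered 4, and 0 passed: Arc was at 0.19 with 561 and 545 reads, Arhgef15 at -0.14, Ring1 at 0.04 and Kcnn2 at -0.0014. The median over all 17079 genes was -0.0023.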

How the data were processed

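Whole-brain poly(A)-selected RNA was sequenced by the authors as 36-base single reads and aligned with Novoalign to gene models, their splice junctions with up to 2 skipped exons, and mm9, and uniquely mapping reads were kept. Per the methods second strands were marked with dUTP, whereas the labels name a standard mRNA kit, and the reads lay about evenly on both strands. The deposited counts are 1 line per distinct position with the number of identical reads, a meaning taken from the values. The deposited files hold no normalized values. Junction counts are limited to the gene models aligned to, and columns of unassigned samples numbered 0.

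Reads were counted over merged exons of GENCODE vM1 (same build) when a block overlapped, introns from unspliced reads outside exons, and windows, with python 3.11.15, numpy 2.4.6, pandas 2.3.3 and scipy 1.17.1. Scaling used totals of 128944754 and 109719746 reads. A gene was called past a log2 ratio of 1 among genes with at least 100 reads over both libraries. Intervals are 95% Clopper-Pearson. Uniqueness is the percent of 36-base words found once in the genome, on either strand, without mismatch. Counting and ratios were tested on simulated data with independent reads, which does not cover repeated reads at a position. One member and the gene list it belongs to are not reported here. The rule for names took the other members, all genes of the other lists, annotated junctions of members (those of Atp10a with few reads are given as a range), and unannotated ones that reached 10 reads in BxC and in CxB; further junctions and regions named were chosen after their values were seen. Members and lists were chosen with earlier results of these data known. Alternatives were distinct positions, sense strand, other totals, median scaling, other minima, trimmed introns, 5-kb windows and a minimum overhang of 8 bases. RefSeq names came from the GRCm38.p6 table and 2 member names were matched in it as synonyms; no coordinates were taken from it.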

Additional observations from a re-analysis of the deposited data

How the results depend on the processing

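No paired analysis was possible because each cross has 1 library, and no replicate could be left out. Directions of the 12 recomputed member ratios were kept, and the largest shift was 0.106. Other totals and median scaling move all ratios by the same small amount, so they could not turn a direction here. Counting each distinct position once moved the levels of Atp10a to 2.14 RPKM in BxC and 2.39 in CxB, Ube3a to 12.9 and 12.4 and C230091D08Rik to 3.90 and 4.12, and the log2 ratios of Ube3a to -0.061 and C230091D08Rik to 0.080. It moved genes called in all from 125 to 34, opposite-strand shares of Ube3a introns from 36.5% to 47.4% in BxC and from 37.8% to 45.4% in CxB, of exons from 51.7% to 48.7% and from 51.8% to 49.3%, opposite-strand reads per kb over Ube3a windows from 153 to 67.05 and from 125.6 to 51.05, the share from exon 1 to exon 4 to 52.4% and 57.6%, the gap to 104% and 98.4% of the last exon, and the array ratio to 1.59. On the sense strand alone levels were 0.563 and 0.657 RPKM for Atp10a, 5.39 and 4.95 for Ube3a and 1.55 and 1.77 for C230091D08Rik, and 66 genes were called. A minimum of 20 reads called 911 genes and of 500 reads 28. Windows of 5 kb gave 143 opposite-strand reads per kb in BxC. After seeing the data, the array was recomputed without its first 20 kb (3.22). It was also recomputed over the 10-kb windows beyond its edge, without those with most reads (3.31). That value also leaves out the start of the array, so it does not show the effect of the windows with most reads alone. Of the 98 values under alternatives 66 stayed. The rule was counting error, or 1.5 times for counts of genes, or the standard deviation of the list's ratios for list medians. All 24 list medians stayed under this wide rule. Of the other 74 values 42 stayed and 32 moved, and those that stayed include list counts of 0 that remained 0. Those that moved include levels on 1 strand set against both strands, and positions per kb set against reads per kb. Such values differ by their measure, so these tallies say little about robustness. The cause of the shifts was not tested. The list medians changed sign in 2 cases, both near 0: neighbours from 0.04 to -0.0041 by distinct positions, and substrates or targets from 0.02 to -0.02 on the sense strand. MBII-52 had 0 reads in both libraries, so its levels could not be compared.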
